A study of Mus musculus with 12 samples.

Results

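Interferon-stimulated genes were followed in the cerebral cortex of lupus-prone mice through 9 members, Stat2, Irf9, Irf7, Ifit1, Ifit3, Isg15, Oasl2, Bst2 and Usp18. The members were taken as every non-control probe that the arrays list under 1 of these gene names, which gave 10 probes for 9 of the 29608 gene names on the array. Stat2 and Irf9 were the members that rose in MRL/lpr cortex, by 1.53-fold and 2.10-fold over MRL/+. These 2 of 8 tested members were a share close to that of all genes, of which 24.8% were called. The Irf9 probe was not well above background in 2 of the 4 MRL/+ mice, both labelled with Cy5, and among the Cy3 mice, where it was, the ratio was 1.815. Stat2 and Irf9 also rose in Fn14ko cortex, together with Ifit3, where 13.2% of all genes were called. These Fn14ko calls were lost without the 2 Cy5 control mice, and also with stray local backgrounds left as deposited. Without MRL/+ replicate 3 alone, only Irf9 was still called. The Stat2 rise in MRL/lpr was called in 15 of 20 other settings. It turned to −0.06 on the log2 scale with the background taken from negative control spots, which match no transcript. None of the antiviral effectors Ifit1, Isg15, Oasl2 and Bst2 or the inhibitor Usp18 passed the test in any comparison. Irf7 did not pass the filter on dim spots and was not tested.

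Cortex RNA of 12 adult female mice was hybridized to 6 Agilent two-colour arrays, with 4 mice of each group, MRL/lpr, Fn14ko and MRL/+. MRL/lpr mice carry the lpr mutation of the death receptor gene Fas on the MRL background and develop lupus-like disease. Fn14ko mice, labelled Fn14koMRL, are MRL/lpr mice in which Fn14, the TWEAK receptor encoded by Tnfrsf12a, was knocked out, and according to the study's methods they were backcrossed littermates of the MRL/lpr mice. The MRL/+ controls, labelled MRL/MpJ, share the MRL background, lack the lpr mutation and have Fn14. By the methods all mice were about 12 weeks old and in diestrus, and the lpr groups were bred at one site whereas the MRL/+ mice were bought from another, so origin and group cannot be told apart. The arrays ask 3 questions of these genes. The first is whether they differ between lpr and control cortex with Fn14 present. The second sets lpr cortex without Fn14 against control cortex with Fn14, where effects of lpr and of Fn14 cannot be told apart. The third is whether they differ between lpr cortex with and without Fn14.

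Type I interferons bind the receptor Ifnar1 and Ifnar2, whose kinases Jak1 and Tyk2 phosphorylate Stat2. Stat2 and Irf9 act within the complex ISGF3, which enters the nucleus and binds a DNA element called the interferon-stimulated response element (ISRE) in the promoters of its target genes. These targets include antiviral effectors, further transcription factors such as Irf7, and Usp18, which limits signalling at the receptor. Raised expression of such genes in blood is a well-known feature of systemic lupus.

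The promoters of the members were searched for the letters of this element. RefSeq promoter sequences of build GRCm38.p6 were matched by symbol for 8 of the 9 members, Irf9 with 2 listed starts and Usp18 without an entry. In the 250 bases upstream of the start, the ISRE core, searched on both strands as GAAA, any 2 bases (NN) and GAAA, was found in 5 members, Ifit1, Ifit3, Isg15, Stat2 and Bst2. It was found in 2.98% of all 32851 promoter windows of this length. The 5 sequences with a match are shown because their letters match the core of the element that ISGF3 binds, with the match in capitals and the start just past the last base.
Stat2, chr10:128270248-128270497, plus strand: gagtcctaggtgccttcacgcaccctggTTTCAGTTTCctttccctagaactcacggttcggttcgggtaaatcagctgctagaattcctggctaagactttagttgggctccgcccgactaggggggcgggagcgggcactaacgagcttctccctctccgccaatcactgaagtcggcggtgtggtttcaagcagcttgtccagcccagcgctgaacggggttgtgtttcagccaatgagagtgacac
Ifit1, chr19:34640639-34640888, plus strand: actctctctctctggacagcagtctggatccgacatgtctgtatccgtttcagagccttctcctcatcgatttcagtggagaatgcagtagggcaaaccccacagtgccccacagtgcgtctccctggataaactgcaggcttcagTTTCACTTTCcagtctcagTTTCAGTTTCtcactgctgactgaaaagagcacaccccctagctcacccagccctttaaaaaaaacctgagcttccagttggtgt
Ifit3, chr19:34583279-34583528, plus strand: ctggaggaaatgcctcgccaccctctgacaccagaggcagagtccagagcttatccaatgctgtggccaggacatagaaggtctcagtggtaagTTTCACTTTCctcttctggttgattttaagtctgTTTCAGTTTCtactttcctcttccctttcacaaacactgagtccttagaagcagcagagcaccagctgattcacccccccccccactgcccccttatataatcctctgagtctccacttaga
Isg15, chr4:156200819-156201068, minus strand: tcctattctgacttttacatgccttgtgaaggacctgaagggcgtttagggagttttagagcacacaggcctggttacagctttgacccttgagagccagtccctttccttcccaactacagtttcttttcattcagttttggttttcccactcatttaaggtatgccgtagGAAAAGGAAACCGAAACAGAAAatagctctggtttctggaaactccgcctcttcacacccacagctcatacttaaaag
Bst2, chr8:71537473-71537722, minus strand: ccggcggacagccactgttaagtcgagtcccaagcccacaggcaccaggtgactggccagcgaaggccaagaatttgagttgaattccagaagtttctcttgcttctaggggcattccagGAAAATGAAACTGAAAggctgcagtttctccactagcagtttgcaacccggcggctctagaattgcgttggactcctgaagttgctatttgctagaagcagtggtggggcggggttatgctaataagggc

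In Isg15 the 3 matches overlapped in tandem and began 78, 72 and 66 bases before the start, and in Bst2 the 2 matches overlapped and began 130 and 124 bases before it. Ifit1 held 2 separate matches that began 104 and 85 bases before the start, Ifit3 held 2 that began 156 and 122 bases before it, and Stat2 held 1 that began 222 bases before it. The GAS motif TTCNNNGAA, the element of Stat dimers, was found in 1 member, Bst2, where it began at base 136 and overlapped the first ISRE core, and in 7.02% of all windows. These letters were not in the windows of Irf7, Irf9 and Oasl2.

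Signals below are background-corrected intensities divided by the median of the retained spots of the same mouse, so that 1 is the median spot. Replicates 1 and 3 of each group were labelled with Cy3 and replicates 2 and 4 with Cy5, and both mice of an array belonged to 1 group. Each group had its own slide for its 2 arrays, and differences between slides cannot be told apart from those between groups. The Cy5 channels of MRL/+ stood apart, with 35% and 21.2% of non-control spots well above background by the scanner software's mark, compared with 56.6% to 70.03% in the other 10 channels. In these 2 MRL/+ mice the negative control spots, which match no transcript, read 6.12 and 6.31 times their local background, against 1.13 to 2.65 times in the other 10. Tnfrsf12a, the targeted gene, read 0.604 to 0.755 in Fn14ko, 0.943 to 1.28 in MRL/+ and 1.385 to 1.90 in MRL/lpr, without overlap, and was well above background in all 4 Fn14ko mice. The position of its probe relative to the deleted part was not given in the sources used here. Markers of cortical excitatory neurons were all measured, with summed signals of 25.3 to 29.5 in MRL/lpr, 27.6 to 38.6 in Fn14ko and 35.9 to 53.1 in MRL/+.

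Of the 10 member probes, 8 passed the filter, which asked for a foreground of at least 2 times the local background in all 12 mice, and they gave 1 probe for each of 8 genes. The probes of Stat2 and of the brighter Isg15 sequence were well above background in 11 of 12 mice, those of Ifit3, Irf9, Usp18, Oasl2 and Bst2 in 10, and that of Ifit1 in 8. Stat2 and Isg15 fell short in 1 MRL/+ mouse each, and the other 6 genes in both Cy5 mice of MRL/+, to which Ifit1 adds MRL/lpr replicate 4 and Fn14ko replicate 2. The Irf7 probe missed the filter in 1 mouse, MRL/lpr replicate 4, at 1.62 times the local background, and the second Isg15 probe in 5 mice. The second Isg15 probe was well above background in 0 of 12 mice and the Irf7 probe in the 6 Cy3 mice alone.

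**Figure D1:**
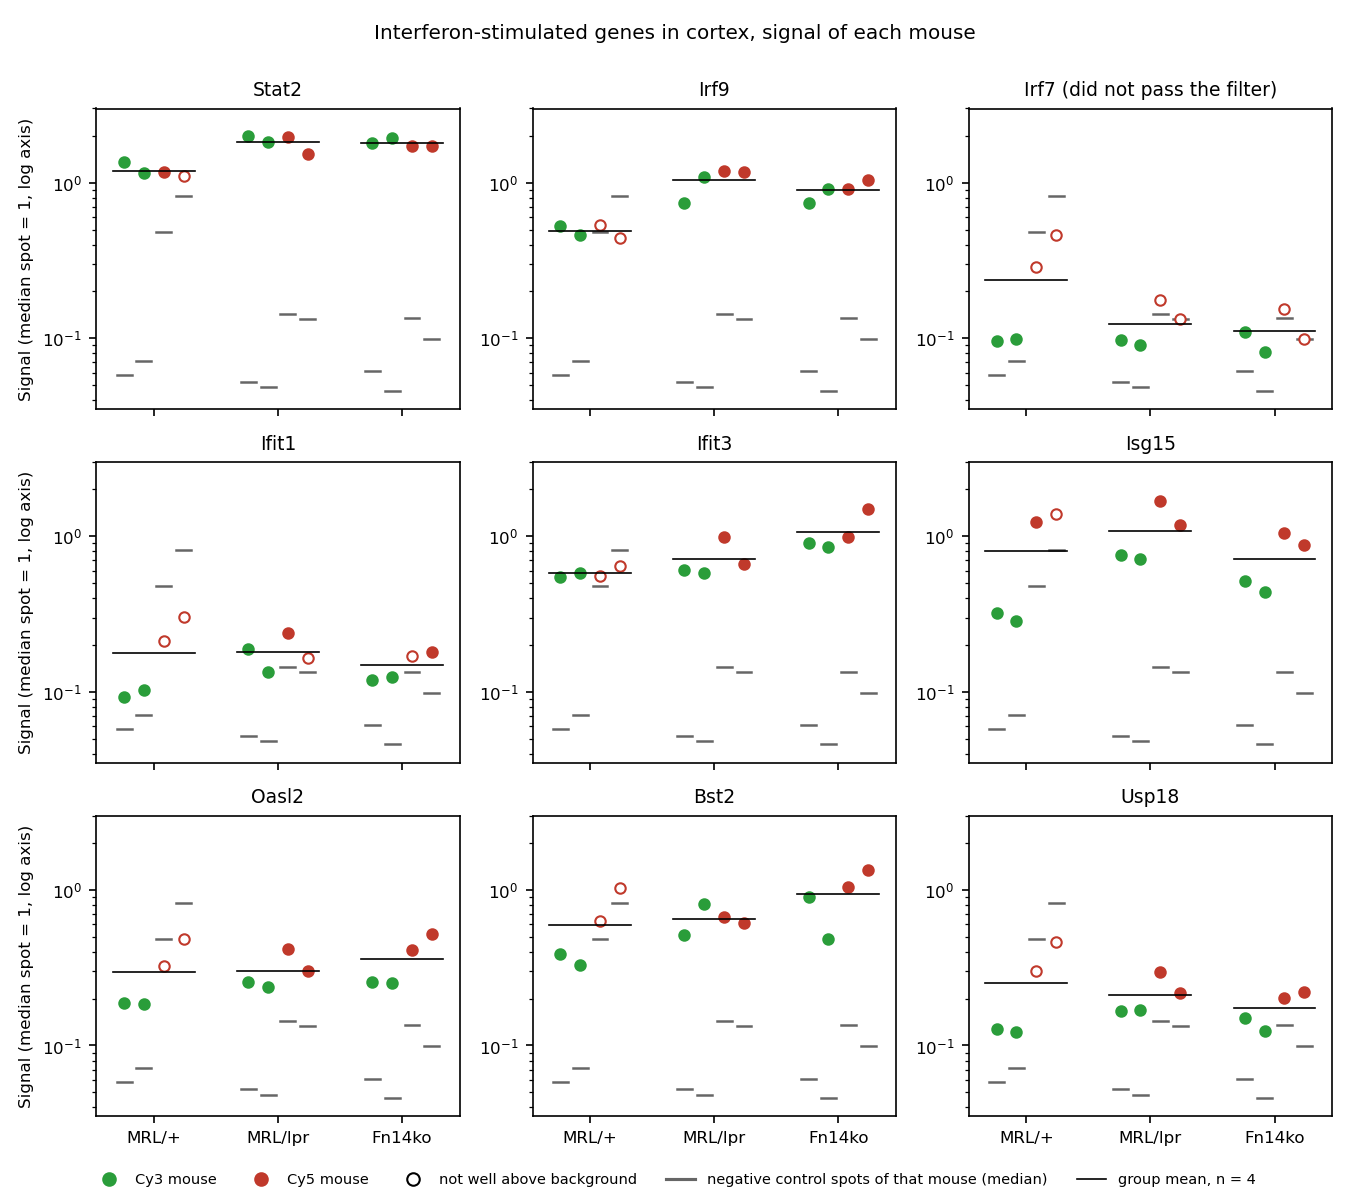
Signal of each mouse for the 9 genes on a log axis in units of the median spot, by group, with Cy3 mice in green and Cy5 mice in red, open points where the spot was not well above background, short grey lines at the median negative control of that mouse and black lines at the mean of 4 mice. Stat2 and Irf9 lay lower in all 4 MRL/+ mice than in every other mouse. The negative controls of the 2 Cy5 MRL/+ mice, at 0.483 and 0.823, lay above Ifit1, Irf7, Oasl2 and Usp18 there. In MRL/+ replicate 4 they also lay above Irf9 and Ifit3.

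Stat2 and Irf9, both transcription factors, separated the lpr groups from MRL/+. Stat2, the Stat protein particular to type I and type III interferon signalling, has its probe on mm9 at chr10:127729834-127729893. Stat2 signals were 1.99, 1.97, 1.84 and 1.54 in MRL/lpr replicates 1 to 4. They were 1.80, 1.73, 1.94 and 1.73 in Fn14ko and 1.36, 1.17, 1.16 and 1.10 in MRL/+. All 8 lpr mice were above all 4 MRL/+ mice, and the lpr groups overlapped. In the Cy5 mice of MRL/+ the Stat2 signal was 2.415 and 1.33 times the median negative control of the same channel.

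Irf9 supplies the DNA contact of ISGF3, and its probe lies at chr14:56228806-56228865 on mm9. Irf9 signals were 0.740, 1.19, 1.09 and 1.17 in MRL/lpr. They were 0.7445, 0.915, 0.908 and 1.04 in Fn14ko and 0.530, 0.533, 0.461 and 0.444 in MRL/+. Again all 8 lpr mice were above the 4 MRL/+ mice, and this held within Cy3 and within Cy5. In the Cy5 mice of MRL/+ the Irf9 signal was 1.10 and 0.539 times the median negative control of the same channel, near or below the level of spots without a transcript.

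Irf7, the factor that amplifies interferon production, has its probe on chromosome 7 between 148450664 and 148451014 of mm9. In the 6 Cy3 mice, where it was well above background, Irf7 read 0.0969 and 0.0912 in MRL/lpr, 0.110 and 0.0811 in Fn14ko, and 0.0955 and 0.0994 in MRL/+. These Cy3 values overlapped in all 3 groups. In the Cy5 mice, none of them well above background, the same spot read 0.175 and 0.133, 0.1535 and 0.0997, and 0.286 and 0.4645 in the same order.

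Among the effectors, Ifit3, a protein that binds Ifit1 and aids its antiviral action, separated Fn14ko from MRL/+ but not from MRL/lpr. The Ifit3 probe lies at chr19:34663105-34663164 on mm9. Ifit3 signals were 0.605, 0.9965, 0.579 and 0.669 in MRL/lpr. They were 0.904, 0.996, 0.859 and 1.497 in Fn14ko and 0.548, 0.558, 0.583 and 0.644 in MRL/+. Every Fn14ko mouse was above every MRL/+ mouse, whereas MRL/lpr overlapped with both. Ifit3 in the Cy5 mice of MRL/+ read 1.16 and 0.783 times the median negative control.

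Ifit1, which binds foreign RNA that lacks the host's cap methylation, has its probe at chr19:34723796-34723855 on mm9. Ifit1 signals were 0.189, 0.238, 0.135 and 0.165 in MRL/lpr. They were 0.1185, 0.170, 0.125 and 0.180 in Fn14ko and 0.0930, 0.2115, 0.103 and 0.302 in MRL/+. The groups overlapped, with the lowest and the highest of all 12 values both in MRL/+, where Ifit1 was well above background only in the 2 Cy3 mice.

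Isg15, a ubiquitin-like protein that is joined to other proteins and also secreted, has its brighter probe at chr4:155573649-155573708 on mm9. Isg15 signals were 0.761, 1.69, 0.7125 and 1.18 in MRL/lpr. They were 0.520, 1.04, 0.437 and 0.874 in Fn14ko and 0.320, 1.23, 0.287 and 1.39 in MRL/+. Cy5 mice read above Cy3 mice in all 3 groups, by 1.95 times in MRL/lpr, 2.00 times in Fn14ko and 4.31 times in MRL/+. Within Cy3 the order was MRL/lpr, Fn14ko, MRL/+ with no overlap, whereas within Cy5 the MRL/+ mice lay between the MRL/lpr values. The second Isg15 probe read 0.0618 to 0.391, not above background in any mouse.

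Oasl2, a relative of the 2′-5′ oligoadenylate synthetases, has its probe at chr5:115362168-115362227 on mm9. Oasl2 signals were 0.254, 0.4165, 0.2365 and 0.302 in MRL/lpr. They were 0.256, 0.413, 0.250 and 0.523 in Fn14ko and 0.187, 0.326, 0.184 and 0.485 in MRL/+. The groups overlapped, although the 2 Cy3 mice of MRL/+ were the lowest of all.

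Bst2, or tetherin, holds budding virus at the cell surface, and its probe lies at chr8:74058603-74058662 on mm9. Bst2 signals were 0.5115, 0.665, 0.806 and 0.6085 in MRL/lpr. They were 0.898, 1.04, 0.486 and 1.335 in Fn14ko and 0.388, 0.6325, 0.329 and 1.03 in MRL/+. The groups overlapped, and the spread was wide in both Fn14ko and MRL/+, with coefficients of variation of 37.6% and 53.7%.

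Usp18 removes Isg15 from proteins and limits signalling at Ifnar2, and its probe lies at chr6:121220874-121220933 on mm9. Usp18 signals were 0.166, 0.295, 0.168 and 0.217 in MRL/lpr. They were 0.151, 0.201, 0.123 and 0.219 in Fn14ko and 0.128, 0.299, 0.122 and 0.464 in MRL/+. As with Ifit1, the lowest and the highest values were both in MRL/+ and the groups overlapped.

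Of the 8 tested members, MRL/lpr against MRL/+ called 2, Irf9 and Stat2, both higher in MRL/lpr, and 0 lower. Over all 17302 genes tested, 24.8% were called at a Benjamini-Hochberg adjusted p under 0.05 in limma, 10.1% higher and 14.8% lower, so the members' share was close to that of all genes. Irf9 was 2.10-fold higher, a log2 fold change of 1.07 ± 0.16 (SE, 4 mice a group, limma adjusted p = 0.000885). Stat2 was 1.53-fold higher, a log2 fold change of 0.61 ± 0.12 (SE, limma adjusted p = 0.00339). For each of them the exact permutation p was 0.0286, the smallest that 4 mice against 4 allow. These 2 members were also the 2 without overlap between the groups, compared with 9.51% of all genes without overlap and higher in MRL/lpr and 13.8% lower. In whole cortex, more cells of a type and more RNA per cell cannot be told apart.

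Of the other members, Isg15 came nearest, with a log2 fold change of 0.70 ± 0.25 (SE, limma adjusted p = 0.0575, exact permutation p = 0.343). The 95% confidence intervals of the log2 fold changes were −0.42 to 0.77 for Ifit1, −0.12 to 0.64 for Ifit3, −0.31 to 0.54 for Oasl2, −0.40 to 0.90 for Bst2 and −0.64 to 0.49 for Usp18. The log2 fold change was above 0 for 7 of the 8 members, with a median of 0.25, beside a median of −0.07 over all genes. Irf9 and Stat2 were called with each of the 12 mice left out in turn, and Isg15 in 3 of these fits. With the background taken from the negative control spots, the Stat2 difference turned to −0.06 and was no longer called, whereas Ifit1, Ifit3, Isg15, Oasl2, Bst2 and Usp18 were called higher, in a setting that called 14573 of all genes.

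**Figure D2:**
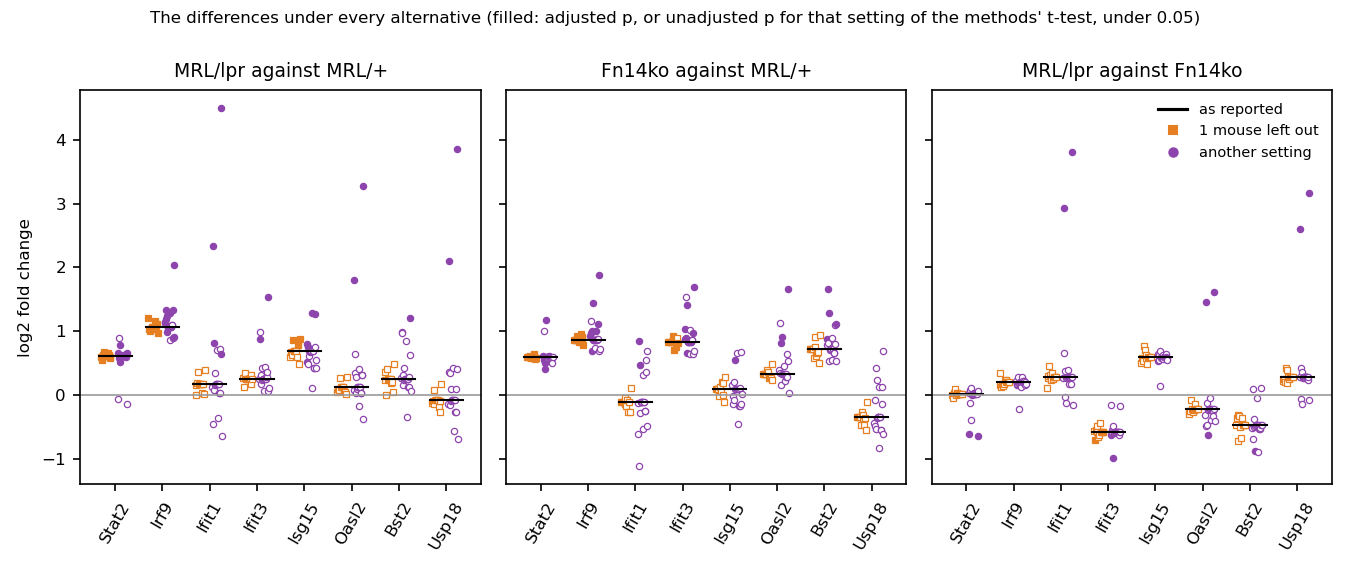
Log2 fold change of each gene under every alternative, with black lines at the reported value, squares for fits with 1 mouse left out, circles for other settings and filled symbols where p was under 0.05 (adjusted, but unadjusted for that setting of the methods' t-test). Irf9 against MRL/+ lay above 0 in all settings of both comparisons, whereas Stat2 in MRL/lpr reached −0.14 with the negative control background.

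**Figure D3:**
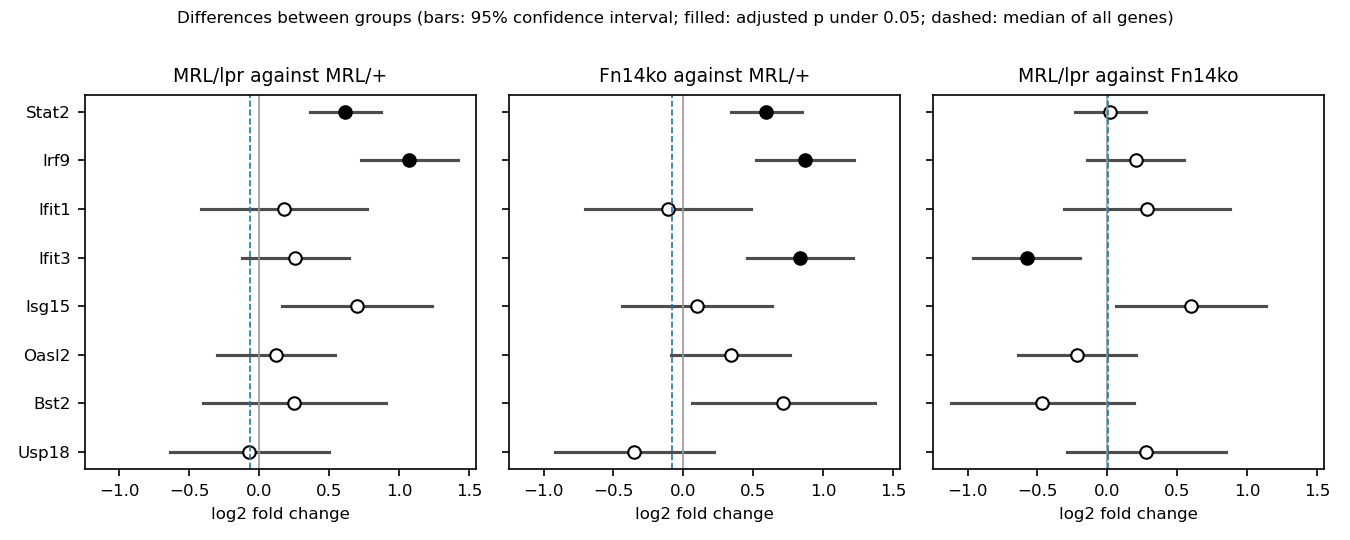
Log2 fold change of the 8 tested genes in each comparison, with bars for the 95% confidence interval, filled points where the limma adjusted p was under 0.05 and a dashed line at the median of all 17302 genes. Stat2 and Irf9 lay to the right of 0 with their whole intervals in both comparisons with MRL/+, and near 0 between the lpr groups, at 0.02 and 0.20.

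The comparison of Fn14ko with MRL/+, which uses the same 4 control mice, called 3 of the 8 members higher, Irf9, Ifit3 and Stat2, and 0 lower. Of all genes 13.2% were called, 4.90% higher and 8.28% lower. Irf9 had a log2 fold change of 0.87 ± 0.16 (SE, limma adjusted p = 0.00721) and Stat2 one of 0.59 ± 0.12 (SE, limma adjusted p = 0.0102). Ifit3 was 1.78-fold higher, a log2 fold change of 0.83 ± 0.17 (SE, limma adjusted p = 0.0135). The exact permutation p was 0.0286 for each, the smallest the design allows. The same 3 genes had no overlap between the groups, beside 7.06% of all genes without overlap and higher in Fn14ko and 8.76% lower.

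Bst2 had a log2 fold change of 0.71 ± 0.30 (SE, limma adjusted p = 0.117), with a 95% confidence interval of 0.06 to 1.37. Isg15 was at 0.10, Oasl2 at 0.34, Ifit1 at −0.11 and Usp18 at −0.35, with limma adjusted p-values from 0.233 to 0.800. The median over the 8 members was 0.46, beside −0.08 over all genes. Scaling to the 75th percentile moved the median of all genes to −0.26 and that of the members to 0.29, and the share of higher genes among all calls went from 37.2% to 22.8%, to 49.7% with loess and Aquantile and to 12% with the scanner software's processed signal.

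The 3 calls in Fn14ko against MRL/+ were lost under several alternatives. Without MRL/+ replicate 3 only Irf9 was called, and 512 of all genes in place of 2279. Without the cap on stray local backgrounds, which touched spots of all 3 groups, 0 of the members were called, with log2 fold changes of 0.72 for Irf9, 0.69 for Ifit3 and 0.59 for Stat2 and adjusted p-values of 0.104, 0.112 and 0.0713. Without the Cy5 mice of MRL/+ it was again 0, at 0.70, 0.64 and 0.58, while MRL/lpr against the same 2 mice kept Irf9 and Stat2 and added Ifit1 and Isg15.

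Between the lpr groups, 1 of the 8 members was called, Ifit3, which was lower in MRL/lpr than in Fn14ko by a log2 fold change of −0.58 ± 0.17 (SE, limma adjusted p = 0.0466). Of all genes 14.3% were called, 7.41% higher and 6.89% lower in MRL/lpr, and 51.8% of all calls were higher, or 62.1% after scaling to the 75th percentile. The Ifit3 values of the groups overlapped and the exact permutation p was 0.114. The call was lost with 8 of the 12 mice left out in turn, controls included, where the adjusted p reached 0.158. No member was without overlap between the lpr groups, compared with 12.2% of genes higher and 13.6% lower without overlap.

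Stat2 differed by 0.02 and Irf9 by 0.20 on the log2 scale between the lpr groups, with 95% confidence intervals of −0.23 to 0.27 and −0.15 to 0.55. Both intervals ended below the estimated differences of MRL/lpr from MRL/+, 0.61 for Stat2 and 1.07 for Irf9. Those differences had 95% confidence intervals of 0.36 to 0.87 and 0.72 to 1.42. The comparisons share the MRL/lpr mice, and their differences were not tested against each other. Isg15 was 1.51-fold higher in MRL/lpr, with an interval on the log2 scale of 0.06 to 1.13 (limma adjusted p = 0.123). Ifit1, Usp18, Oasl2 and Bst2 had intervals that included 0, from −1.12 for Bst2 at the low end to 0.88 for Ifit1 at the high end. The median over the members was 0.11 and that over all genes 0.00.

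The same differences were taken within each dye, since the Cy5 channels of MRL/+ were the weak ones. Among Cy3 mice, all 8 members lay above MRL/+ in MRL/lpr, from 0.07 for Ifit3 to 1.28 for Isg15 on the log2 scale, with a median of 0.65 beside −0.02 over all genes. Among Cy5 mice, 4 of 8 were higher, with a median of −0.03 beside −0.11. Irf9 was higher by 0.86 in Cy3 and 1.28 in Cy5, and Stat2 by 0.61 and 0.62, with the same sign in both dyes. Usp18, in contrast, was 0.42 higher in Cy3 and 0.56 lower in Cy5, without overlap in either. With 2 mice against 2 these are values without a permutation test, and the difference between the dyes was not tested.

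Fn14ko, compared with the same MRL/+ mice, also differed by dye. Among Cy3 mice all 8 members were higher than in MRL/+, with a median of 0.61, and among Cy5 mice 5 of 8, with a median of 0.38. Ifit3 was higher by 0.64 and 1.03 and Irf9 by 0.73 and 1.00 in Cy3 and Cy5. Isg15 was 0.65 higher in Cy3 and 0.45 lower in Cy5. Between the lpr groups, Cy3 and Cy5 gave 0.63 and 0.56 for Isg15, −0.57 and −0.58 for Ifit3 and −0.04 and −0.89 for Bst2.

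**Figure D4:**
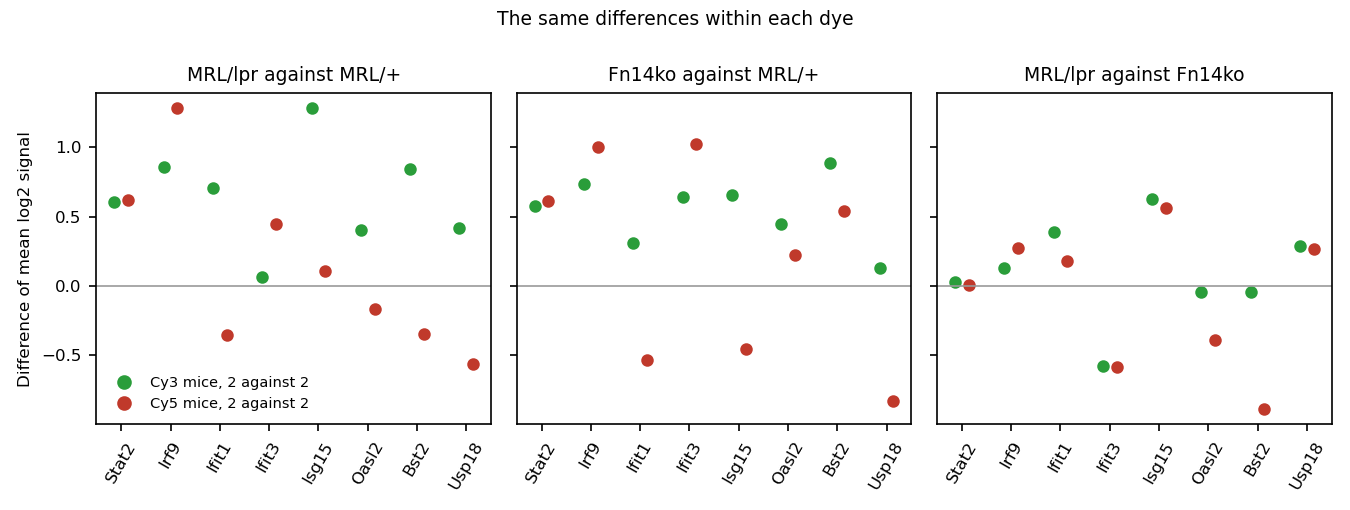
Difference of mean log2 signal for each gene within the Cy3 mice (green) and within the Cy5 mice (red), 2 mice against 2, in each comparison. Stat2 had nearly the same difference in both dyes, whereas Ifit1 and Usp18 lay above 0 in Cy3 and below 0 in Cy5 in both comparisons with MRL/+.

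The rest of the interferon pathway was described through 7 lists of 91 genes by role, of which 88 are on the array and 71 were tested. In MRL/lpr against MRL/+ 6 of the 71 were called higher and 6 lower, beside 10.1% and 14.8% of all genes, with a median log2 fold change of 0.13. In Fn14ko against MRL/+ the counts were 6 higher and 3 lower, beside 4.90% and 8.28% of all genes, and in MRL/lpr against Fn14ko 2 higher and 5 lower, beside 7.41% and 6.89%. The medians over the 71 were 0.01 and 0.04 in these comparisons, beside the −0.08 and 0.00 of all genes.

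Of 9 ligands 8 are on the array and 3 were tested, and the rest on the array were left out as dim or marked. Ifnl3, a type III interferon, was lower in MRL/lpr, at 0.769 ± 0.110 (SD, n = 4) against 1.61 ± 0.26 in Fn14ko and 1.74 ± 0.18 in MRL/+. Of 7 receptors and kinases, 0 were called higher and 1 lower in each comparison, the interferon-gamma receptor chain Ifngr2. Ifngr2 read 5.55 ± 0.53 in MRL/+, 3.665 ± 0.62 in Fn14ko and 2.22 ± 0.34 in MRL/lpr (SD, n = 4), so that it was lower by 1.33 on the log2 scale in MRL/lpr than in MRL/+.

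The type I receptor and its kinases showed no call. Ifnar1 was at 0.614, 0.524 and 0.556 in MRL/lpr, Fn14ko and MRL/+, and Ifnar2 at 1.40, 1.68 and 1.33. Jak1 was at 6.91, 8.83 and 6.28 and Tyk2 at 0.553, 0.586 and 0.616 in the same order. Their log2 fold changes lay between −0.16 and 0.20 in MRL/lpr against MRL/+, with limma adjusted p-values of 0.417 to 0.678. Of the 6 other transcription factors tested, Irf2, known as a repressor of interferon-responsive genes, was lower in Fn14ko, at 0.6475 ± 0.074 than in MRL/+, at 0.942 ± 0.054, and than in MRL/lpr, at 1.12 ± 0.09 (SD, n = 4).

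The interferon-gamma GTPases, which act on vacuoles that hold intracellular pathogens, held the highest called difference of the pathway in each comparison with MRL/+, Gbp3 in MRL/lpr and Igtp in Fn14ko. In both comparisons with MRL/+ 3 of 10 were called higher and 0 lower, the same 3 genes, Gbp3, Igtp and Irgm2. Of all genes, 10.1% were called higher and 14.8% lower in MRL/lpr, and 4.90% and 8.28% in Fn14ko. In the Cy5 mice of MRL/+ these 3 genes lay below the negative controls of 0.483 and 0.8225. There Gbp3 read 0.354 and 0.393, Igtp 0.286 and 0.425 and Irgm2 0.275 and 0.414. Gbp3 averaged 0.316 ± 0.068 among MRL/+ mice, 0.7645 ± 0.043 among MRL/lpr mice and 0.699 ± 0.283 among Fn14ko mice (SD, n = 4). Igtp read 0.289 ± 0.095, 0.493 ± 0.088 and 1.08 ± 0.53, and Igtp was also lower in MRL/lpr than in Fn14ko by 1.02 on the log2 scale. Irgm2 read 0.240 ± 0.133, 0.469 ± 0.216 and 0.538 ± 0.287 in the same order. Without the Cy5 mice of MRL/+ the count was 3 in MRL/lpr and 1 in Fn14ko, and without the cap on local background, or without MRL/+ replicate 3 alone, it was 1 in each. The ISRE core lay upstream of 8 of the 9 GTPases with a promoter entry, of 7 of 28 antiviral effectors and of 6 of 36 other pathway genes.

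Of 30 other antiviral effectors tested, 2 were called higher and 0 lower in MRL/lpr against MRL/+, and 1 higher and 1 lower in Fn14ko, where Sp100, a nuclear body protein, was lower. The Sp100 call (limma adjusted p = 0.0485) was kept with 2 of the 12 mice left out in turn, without MRL/+ replicate 1 or 2, and in 5 of 20 other settings. Sp100 read 0.5005 and 0.811 in the Cy5 mice of MRL/+, where the negative controls read 0.483 and 0.8225, and 0.223 and 0.274 in the Cy3 mice. Ube2l6, the enzyme that conjugates Isg15, was higher in MRL/lpr, at 0.985 ± 0.136, than in Fn14ko, at 0.564 ± 0.155, and MRL/+, at 0.588 ± 0.029 (SD, n = 4). Among 6 negative regulators Socs3, an inhibitor of Jak kinases, was called higher in MRL/lpr against MRL/+, by 1.11 ± 0.33 (SE) on the log2 scale. In the Cy5 mice of MRL/+ Socs3 read 0.420 and 0.454, below the negative controls of both. Ube2l6 read 0.574 and 0.605 in these mice, below the negative controls in replicate 4 alone. Among 9 nucleic acid sensors and adaptors 3 were lower in MRL/lpr against MRL/+, and of these Ticam1, the adaptor of Tlr3, was lowest, at −0.76 ± 0.21 (SE). The calls behind these small counts that the naming rule left out, named after their values were seen, were Znfx1, Mavs, Tlr7 and Stat3 in MRL/lpr against MRL/+, Irf1, Pias1 and Ifitm2 in Fn14ko against MRL/+, and Stat3 and Ifi27 between the lpr groups. Without MRL/+ replicate 3 the calls of Irgm2, Igtp, Socs3, Ube2l6 and Ticam1 in MRL/lpr against MRL/+ were lost, as were those of Gbp3, Irgm2, Irf2, Ifngr2 and Sp100 in Fn14ko against MRL/+ and of Igtp, Ifngr2 and Ube2l6 between the lpr groups. Single other mice also ended the calls of Socs3 (MRL/lpr replicates 1 and 3, MRL/+ replicate 4), Igtp (MRL/lpr replicate 1) and Ticam1 (MRL/lpr replicate 4) in MRL/lpr, and of Ifngr2 (Fn14ko replicates 1 to 3), Irf2 (Fn14ko replicate 3) and Irgm2 (Fn14ko replicate 4) in Fn14ko.

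**Figure D5:**
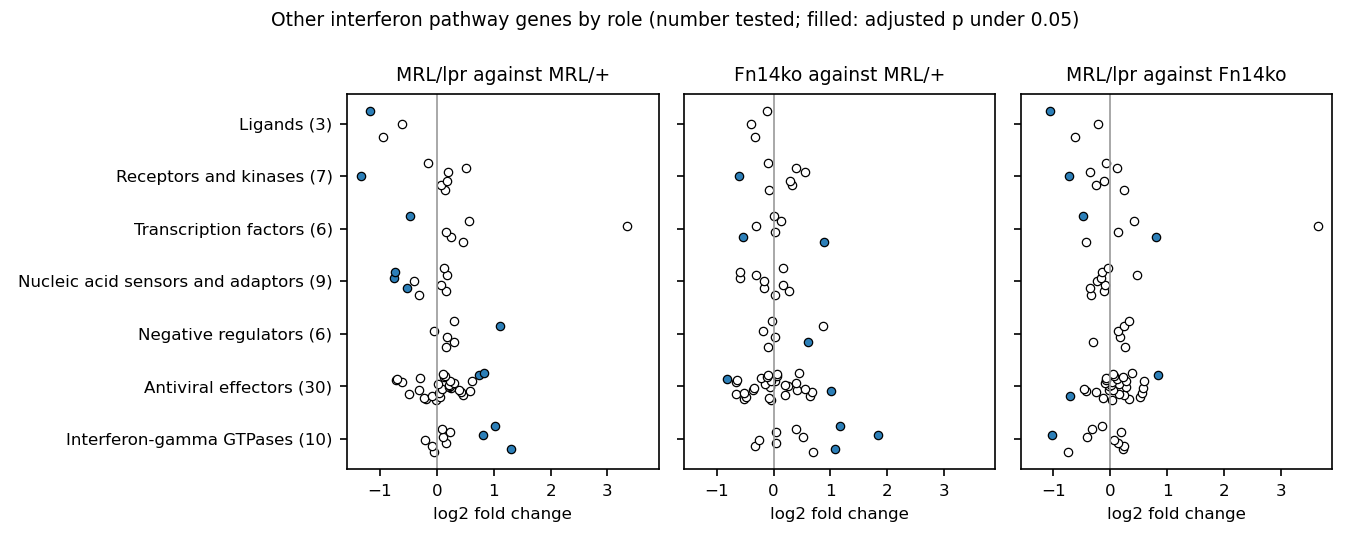
Log2 fold change of the tested genes of each pathway list, with their number in brackets and filled points where the limma adjusted p was under 0.05, in each comparison. The called GTPases Gbp3, Igtp and Irgm2 lay between 0.81 and 1.83 against MRL/+, and the far point among the transcription factors is Irf5, at 3.33 and not called.

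Markers of other cells also differed between the groups, and endothelial markers alone were called higher in both lpr groups against MRL/+, as Stat2 and Irf9 were. Over all genes, 10.1% were called higher and 14.8% lower in MRL/lpr against MRL/+, and 4.90% and 8.28% in Fn14ko against MRL/+. Between the lpr groups the shares were 7.41% and 6.89%. Of 6 endothelial markers, all tested, 4 were higher and 0 lower in MRL/lpr against MRL/+, and 2 were higher in Fn14ko. Cldn5 and Pecam1 were called in neither. The log2 fold change was above 0 for all 6 in MRL/lpr and for 5 in Fn14ko, where Pecam1 was at −0.365. The summed endothelial signal was 24.1 to 26.1 in MRL/lpr, 18.3 to 24.8 in Fn14ko and 11.2 to 15.5 in MRL/+. Of 4 erythrocyte markers 3 were higher in MRL/lpr, with summed signals of 118.3 to 301, against 39.7 to 120.6 in Fn14ko and 34.1 to 61.7 in MRL/+, while in Fn14ko 0 were higher and 1, Hbb-b1, was lower than in MRL/+, and 3 were higher in MRL/lpr than in Fn14ko. Of 8 microglial markers 1, Aif1, was higher in MRL/lpr, and the summed signals of 33.5 to 52.2, 36.6 to 51.2 and 43.2 to 60.2 overlapped. Of 7 T lymphocyte markers 3 were tested, of 7 for B and plasma cells 3, of 5 for plasmacytoid dendritic cells 3 and of 6 for monocytes and neutrophils 2, and the rest did not pass the filter or were not on the array. Of these, Siglech and Cox6a2 of the plasmacytoid list and Ly6g of monocytes and neutrophils were higher in MRL/lpr than in each other group. S100a9, the other tested gene of the Ly6g list, was not called. Its log2 fold change in MRL/lpr was 0.54 against MRL/+ and −0.33 against Fn14ko. Tcf4 of the plasmacytoid list was not called, and Ccr9 and Klk1 did not pass the filter. Whether these values came from plasmacytoid dendritic cells was not tested. Siglech, and Cd3e of the T lymphocyte list, were lower in Fn14ko than in MRL/+. The other T lymphocyte genes tested, Cd4 and Lck, were not called there, at −0.60 and 0.31 on the log2 scale. Cox6a2 was not called there either, at 0.16. Of 4 oligodendrocyte markers 2 were lower in MRL/lpr than in MRL/+ and 3 lower than in Fn14ko, and of 5 for choroid plexus 2 were lower in MRL/lpr than in Fn14ko, whereas 0 of 5 astrocyte markers were called. Of the 6 neuronal markers 1 was higher and 3 lower in MRL/lpr against MRL/+, 0 higher and 2 lower in Fn14ko against MRL/+, and 2 higher and 3 lower between the lpr groups. The part of these cells in the values of Stat2 and Irf9 was not tested.

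The members did not share 1 profile over the 12 mice. The mean deviation of the 8 members from their own mean ran from −0.75 and −0.66 in the Cy3 mice of MRL/+ to 0.52 in MRL/lpr replicate 2 and 0.49 in Fn14ko replicate 4, both Cy5 mice. Oasl2 lay nearest to this profile, with a root mean square difference of 0.18 on the log2 scale, and Isg15 and Irf9 farthest, at 0.48 and 0.45. Among 8576 other genes that varied at least as much, the nearest were Dok2, at 0.14, and Clic1, Apobec1, Steap2 and Adcy4, each at 0.18. The points share arrays and dyes, so this likeness only describes these 12 channels.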

How the data were processed

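The authors deposited scanner output of 6 Agilent 4x44k mouse arrays, with the mean foreground intensity and median local background intensity of each spot in both channels, the software's processed signal and its flags. The file headers name Feature Extraction 12.1.0.3, and the coordinates in the files are those of mm9. The study's methods dropped corrupted spots and spots under 2 times the background in any sample, and scaled to the median gene, and these filters were kept here on the deposited intensities. Each channel was treated as 1 mouse, grouped by the labels.

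Of 43020 non-control spots, 1952 marked as uneven or outliers in any channel and 17781 dim in at least 1 mouse, with overlap, were left out, which kept 24255 spots of 17302 genes. The normexp correction of limma 3.58.1 (R 4.3.3, offset 50) was applied after local backgrounds above 5 times the channel's median had been set to that value. Up to 15 spots of a channel exceeded it, with a highest background of 28862, and such spots change the normexp fit of their whole channel. The cap was chosen after the data were seen. Each channel was scaled to the median of its retained spots, and several spots for 1 gene were averaged on the linear scale.

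Groups were compared on log2 values with limma, with a dye term, the array as a random block (correlation 0.0465) and a trend in the variance, over all 12 mice, and 2-sided p-values were adjusted by Benjamini-Hochberg across the genes, with a threshold of 0.05. Single members were also tested by 2-sided exact permutation over the 70 divisions of 8 mice. The fit was first tested on simulated data. The members and lists were chosen with earlier results of these data known. The genes named are the 9 members, the 3 highest and 3 lowest called pathway genes of each comparison, the type I receptor chains, Jak1 and Tyk2, and the 5 genes nearest to the members' profile. The number of arrays limits the precision. Figures were drawn with Python 3.11.15 and matplotlib 3.10.9. The alternatives tried are given with their effect in the closing section. An item withheld for evaluation is not reported here.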

Additional observations from a re-analysis of the deposited data

How the results depend on the processing

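The differences of Irf9 and Stat2 from MRL/+ stayed above 0 in both lpr groups with each of the 12 mice left out in turn. The number of members called was then 2 to 3 in MRL/lpr against MRL/+, 1 to 3 in Fn14ko against MRL/+ and 0 to 1 between the lpr groups. The single call in Fn14ko was Irf9, without MRL/+ replicate 3. In MRL/lpr against MRL/+, 2 as reported, the count was 7 with the background from the negative control spots (6 without an offset), 4 with loess and Aquantile, 4 with every unmarked spot kept, 4 without the Cy5 mice of MRL/+, 1 with the processed signal, 1 with the Cy5 mice only and 0 by the methods' t-test after Benjamini-Hochberg. In Fn14ko against MRL/+, 3 as reported, it was 7 with every unmarked spot kept, 5 with loess and Aquantile, 1 with the processed signal and with the Cy5 mice only, and 0 with the Cy3 mice only, without the Cy5 mice of MRL/+, without the cap and by the methods' t-test after adjustment. Between the lpr groups, 1 as reported, it was 5 with the negative control background (4 without an offset), 3 with every unmarked spot kept, and 0 with the processed signal, loess, the 75th percentile, the Cy3 or Cy5 mice only, single probes, normexp without an offset, no cap, the replicate block and the methods' t-test, unadjusted or adjusted. No member passed where every spot had to be well above background in all 12 mice.

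The replicate block left the counts against MRL/+ at 2 and 3. Same-numbered mice did not deviate together, with correlations from −0.479 to 0.103. Normexp and the negative control background without an offset, the fit without the cap and the fit without the Cy5 mice of MRL/+ were chosen after seeing the data.

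Of 768 member values under another setting, 10 changed direction with a call on either side. With the negative control background, with and then without an offset, these were Stat2 at −0.062 and −0.14 and Usp18 at 2.11 and 3.86 in MRL/lpr against MRL/+, and Stat2 at −0.62 and −0.64 and Oasl2 at 1.45 and 1.62 between the lpr groups. Ifit1 turned to 0.85 with loess and 0.47 with every unmarked spot kept in Fn14ko against MRL/+. Of the other pathway genes, the same negative control settings gave −0.46 and −0.63 for Ifnar2, −1.55 and −1.89 for Jak1, 0.80 and 1.48 for Tyk2, 0.32 and 0.35 for Ticam1 and 1.40 and 2.09 for Sp100 in MRL/lpr against MRL/+, and 0.73 and 0.80 for Tyk2, 0.94 and 1.03 for Irgm2 and 0.94 and 1.03 for Ticam1 between the lpr groups. Irf2 turned to 0.0672 with the processed signal and 0.0328 with every unmarked spot kept in Fn14ko against MRL/+. The cause was not tested. Another 47 member values changed sign without a call.

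Over all genes, the 4298 calls in MRL/lpr against MRL/+ became 14573 with the negative control background and 2492 without the cap, the 2279 in Fn14ko against MRL/+ became 3443 and 165, and the 2474 between the lpr groups became 14357 and 790. Leaving out MRL/+ replicate 3 gave the lowest counts of any single mouse left out, 2146, 512 and 928 in the same order, and leaving out MRL/+ replicate 1 the highest, 6061, 5878 and 3637. The scanner's signal over background limits Ifit1, Usp18, Oasl2 and Irf7, which lay below the negative controls in both Cy5 mice of MRL/+. It also limits Irf9 and Ifit3, which in MRL/+ replicate 4 read 0.539 and 0.783 times the median negative control.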

Other observations

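Irf5, a transcription factor of the pathway that was not called, read 0.322 and 0.371 in MRL/lpr replicates 1 and 2, which share an array, and 17.4 and 64.6 in replicates 3 and 4, which share the other array. It read 0.212 to 0.317 in Fn14ko and 0.245 to 0.467 in MRL/+. Irf5 was named after its values were seen.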
